A study of Homo sapiens with 14 samples.

Results

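The RB, E2F and DREAM regulators are transcription factors and cofactors that decide whether cell cycle genes are read or kept shut. The 10 genes form a list of names, with no threshold on their values: the pocket proteins RB1, RBL1 and RBL2, the activator E2F factors E2F1, E2F2 and E2F3, the atypical repressors E2F7 and E2F8, and the late cell cycle activators FOXM1 and MYBL2. All 10 were listed in every deposited table, among 24638 genes that the tables share. They were followed in poly(A)-selected RNA of IMR90 cells, an established line of human fetal lung fibroblasts with a limited replicative lifespan. The 14 samples fall into 7 groups of 2 labelled replicates. I79 young, I79 old, I10 young and I10 old are low and high passage cells of 2 isolates of the line, named I79 and I10, where old cells had been passaged to replicative exhaustion. I79 ICM cells are low passage cells of isolate I79 treated with inflachromene (ICM), a small molecule binder of HMGB1 and HMGB2, which are chromatin proteins, with neither dose nor time given in the labels. WT cells are labelled wild type and HMGB2 KD cells carry a knockdown of HMGB2 by siRNA. The labels give no isolate or passage for WT and HMGB2 KD, and no control siRNA for WT.

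Each of the old and young groups came as 1 table, so the 2 isolates serve as the replicates of passage, while WT, HMGB2 KD and I79 ICM had a table per library. Totals were 14991385 to 20632959 estimated counts in the old and young tables, 33561766 to 41168932 counts in the WT and HMGB2 KD libraries, and 13290131 and 10971132 reads in the ICM libraries. All 8 fibroblast markers examined (collagens, THY1, PDGFRB, FN1, VIM and DCN) stood above 1 CPM (counts scaled to library size) in every table. Of 12 markers of other lung cell types 11 were listed, and CD3E of T cells, CDH5 of endothelium and SFTPC of alveolar epithelium were listed at 0 in every table. The summed level of that list, over the shared genes, was 25.9 and 27.8 CPM in the young tables, 168 and 84.2 CPM in the old ones and 49.6 to 70.2 CPM elsewhere. CD68, a lysosomal glycoprotein used as a macrophage marker, carried most of the rise with passage, from 24.4 and 26.7 CPM to 160 and 81.2 CPM. Of the endothelial markers, VWF stood at 0.51 and 0.42 CPM in the young tables and 2.86 and 2.39 CPM in the old ones. KDR stood at 0.21 and 4.46 CPM in I79 young and old, and at 3.42 to 8.64 CPM in WT and HMGB2 KD. In the I10 and ICM tables KDR was at most 0.078 CPM. The part of these markers in the results was not tested.

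Pocket proteins bind E2F factors and hold their target genes shut until cyclin-dependent kinases phosphorylate them. RB1 mainly binds the activator E2F factors, whose release opens the genes of DNA replication at the G1/S border. RBL1 (p107) and RBL2 (p130) instead join repressor E2F factors and the MuvB core in the DREAM complex, which silences cell cycle genes in resting cells. When cells cycle, the same MuvB core pairs with MYBL2 and then FOXM1 and turns on the genes of G2 and mitosis. E2F7 and E2F8 are themselves made in S phase and shut E2F targets down again. Loss of proliferation through this pathway is a textbook feature of fibroblast senescence.

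The promoters of several of these genes are themselves read by E2F factors, so the letters around their start sites are shown before their levels. Windows of 300 bases (250 before and 50 after a start) were available for 8 of the 10 genes in RefSeq (GRCh38.p14), and FOXM1 and E2F8 had no entry. The letters GGCGGGA or TTGGCGC, the core of E2F sites, the letters TTTGAA or TTCGAA of the cell cycle homology region (CHR) that MuvB reads, and CCAAT were searched on both strands. They occurred in 17.7%, 16.4% and 34.6% of 35116 RefSeq windows of the same length. The E2F letters were settled with these windows in view, so the matches are a description only. In the sequences, which run 5′ to 3′ along the gene, capitals mark E2F or CHR letters. E2F1, RBL1 and MYBL2 are shown as genes that fell with passage, E2F3 for its pair of start sites and RBL2 as a gene that did not fall.
E2F1, chr20:33686336-33686635 (-): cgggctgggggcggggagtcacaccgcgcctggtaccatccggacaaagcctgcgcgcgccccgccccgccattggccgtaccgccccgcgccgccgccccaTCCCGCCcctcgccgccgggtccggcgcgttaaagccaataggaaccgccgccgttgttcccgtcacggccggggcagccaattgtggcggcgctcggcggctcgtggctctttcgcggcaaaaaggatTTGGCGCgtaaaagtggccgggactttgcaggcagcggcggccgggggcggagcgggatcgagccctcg
RBL1, chr20:37095948-37096247 (-): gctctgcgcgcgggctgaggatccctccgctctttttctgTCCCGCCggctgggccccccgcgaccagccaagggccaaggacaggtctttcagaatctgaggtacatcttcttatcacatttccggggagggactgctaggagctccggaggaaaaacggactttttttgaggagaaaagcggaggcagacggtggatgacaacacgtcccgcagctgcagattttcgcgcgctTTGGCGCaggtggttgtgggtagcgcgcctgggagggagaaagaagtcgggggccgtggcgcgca
MYBL2, chr20:43666864-43667163 (+): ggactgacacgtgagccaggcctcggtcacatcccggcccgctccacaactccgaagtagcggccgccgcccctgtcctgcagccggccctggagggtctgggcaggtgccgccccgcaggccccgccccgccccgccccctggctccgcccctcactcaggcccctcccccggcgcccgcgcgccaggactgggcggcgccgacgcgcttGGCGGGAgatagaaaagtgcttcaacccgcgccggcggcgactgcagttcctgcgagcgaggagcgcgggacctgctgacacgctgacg
E2F3 start 1, chr6:20401629-20401928 (+): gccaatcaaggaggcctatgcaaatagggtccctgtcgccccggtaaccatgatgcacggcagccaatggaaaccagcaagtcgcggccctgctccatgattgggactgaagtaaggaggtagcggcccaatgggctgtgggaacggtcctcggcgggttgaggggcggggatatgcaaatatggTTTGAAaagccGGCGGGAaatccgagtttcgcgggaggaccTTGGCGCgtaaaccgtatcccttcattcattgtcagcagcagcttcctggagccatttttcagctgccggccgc
E2F3 start 2, chr6:20403364-20403663 (+): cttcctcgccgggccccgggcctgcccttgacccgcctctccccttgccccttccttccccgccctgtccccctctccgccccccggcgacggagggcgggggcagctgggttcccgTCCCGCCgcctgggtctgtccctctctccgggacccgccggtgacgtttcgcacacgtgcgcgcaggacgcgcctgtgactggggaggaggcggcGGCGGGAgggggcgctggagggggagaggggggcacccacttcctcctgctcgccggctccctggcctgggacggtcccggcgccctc
RBL2 start 1, chr16:53434221-53434520 (+): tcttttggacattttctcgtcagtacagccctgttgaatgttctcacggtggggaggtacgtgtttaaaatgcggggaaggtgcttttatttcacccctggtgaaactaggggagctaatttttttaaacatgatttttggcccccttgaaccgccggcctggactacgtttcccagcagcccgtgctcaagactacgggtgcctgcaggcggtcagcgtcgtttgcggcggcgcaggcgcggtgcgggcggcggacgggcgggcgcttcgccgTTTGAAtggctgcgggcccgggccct
E2F1 held 2 matches to the E2F letters, with first bases 148 and 19 bases before the start, and 3 CCAAT boxes. RBL1 held 2 matches, at 210 and 15 bases before the start. MYBL2 held 1, at 39 bases before it. E2F3 held 2 at each start site, and at its first start also 1 CHR match and 4 CCAAT boxes. E2F2 and E2F7 held 1 each. Neither start of RBL2 held the E2F letters. RBL2 had 1 CHR match at its first start and 1 CCAAT box at the second. The window listed for RB1 lay 173 kb inside the gene and says nothing of its main promoter. A match is not a bound site, and a window without one says nothing about the factor.

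Levels between genes were compared per transcript length, as the authors' TPM, which corrects for transcript length. In the young tables FOXM1 (38.6 TPM in I79 and 42.1 TPM in I10) and RBL2 (35.2 and 38.7 TPM) stood highest, and their ranges overlapped. RB1 (23.4 and 26.8 TPM) and MYBL2 (21.2 and 17.3 TPM) came next. E2F1 (9.0 and 9.90 TPM) and E2F3 (8.06 and 9.56 TPM) overlapped. RBL1, E2F7 and E2F8 followed between 3.04 and 6.41 TPM, and E2F2 was lowest at 1.10 and 1.33 TPM.

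The order in the old tables was different. RBL2 (43.2 and 33.9 TPM) and RB1 (28.3 and 25.1 TPM) stood clear of all other members. E2F3 (6.45 and 7.43 TPM), FOXM1 (4.53 and 8.84 TPM) and E2F7 (4.37 and 5.24 TPM) overlapped as neighbours. RBL1 (2.03 and 1.90 TPM) and MYBL2 (1.27 and 2.16 TPM) overlapped, and E2F8 and E2F2 were the lowest, below 0.39 TPM in both isolates. The plot of levels by table shows the same genes over all groups, on CPM rather than per length.

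**Figure D1:**
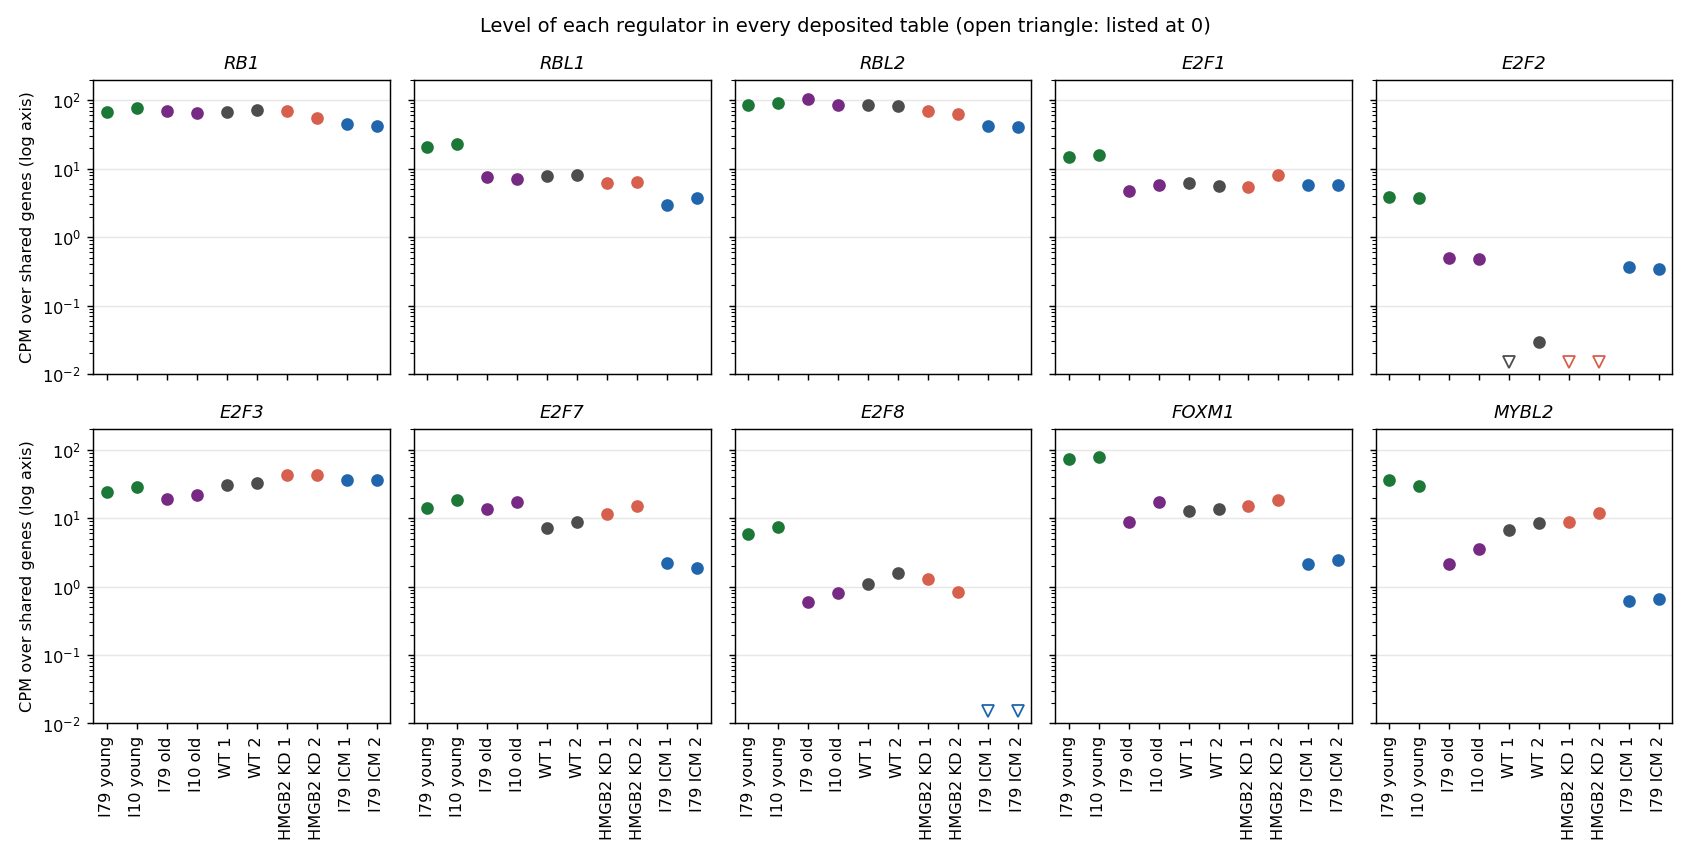
Each panel shows 1 gene, with its CPM over the genes that all tables share on a log axis and the 10 tables along the horizontal axis, 1 point per table. FOXM1, MYBL2, E2F8, E2F2, E2F1 and RBL1 are highest in both young tables (green), while RB1, RBL2 and E2F3 stay within 42.8 to 76.6, 40.2 to 105 and 19.2 to 42.8 CPM over all tables, and open triangles mark tables that list a gene at 0.

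The old against young comparison asks how the regulators differ between proliferating cells and cells passaged to senescence. Of the 10 members 5 fell, namely MYBL2, E2F8, FOXM1, RBL1 and E2F1, and none rose. Calls needed an adjusted p below 0.01 (edgeR's quasi-likelihood test) together with an absolute log2 fold change above 0.6. Of 15115 genes tested 9.57% were called, 3.82% as lower and 5.75% as higher. The median log2 fold change was -1.33 over the members and -0.01 over all genes. In bulk RNA, fewer cycling cells and less RNA per cell cannot be told apart. Values below are CPM scaled by TMM, which removes differences in library composition, in the order I79 young, I10 young, I79 old and I10 old.

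Both late activators fell, and MYBL2 had the lowest log2 fold change of the 10 members. MYBL2, on chromosome 20 (42295659 to 42345135 of GRCh37, plus strand), drives MuvB-bound genes in S phase and stood at 32.1 and 25.6 CPM in young cells against 2.12 and 3.76 CPM in old cells. This was a log2 fold change of -3.31 with an SE of 0.31 (adjusted p = 0.00531, edgeR), a 9.90-fold lower level. FOXM1, on chromosome 12 (2966846 to 2986340, minus strand), drives mitotic genes and stood at 63.7 and 68.9 CPM against 8.63 and 17.8 CPM, a log2 fold change of -2.40 with an SE of 0.25 (adjusted p = 0.00593, edgeR). Both genes were lower in both isolates, with no overlap between ages. FOXM1 overlaps the coding genes ITFG2 and RHNO1 on the other strand, and whether the counting used strand is not stated.

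The size of the fall differed between isolates for both late activators. MYBL2 differed by -3.85 in I79 (502 to 39 estimated counts, 95% counting interval -4.43 to -3.45) and by -2.73 in I10 (491 to 68, interval -3.16 to -2.40). FOXM1 differed by -2.87 in I79 (interval -3.14 to -2.64) and by -1.95 in I10 (interval -2.13 to -1.78). The intervals of the isolates do not overlap, but they cover counting error only. With 1 table per isolate and age, a difference between isolates was not tested.

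The atypical repressors parted ways. E2F8, on chromosome 11 (19245610 to 19263167, minus strand), stood at 5.25 and 6.52 CPM in young cells against 0.597 and 0.829 CPM in old cells, a log2 fold change of -3.04 with an SE of 0.32 (adjusted p = 0.00593, edgeR). The old values rest on 11 and 15 estimated counts. E2F7, on chromosome 12 (77415028 to 77459349, minus strand), stood at 12.5 and 16.2 CPM against 13.6 and 18.3 CPM, a log2 fold change of 0.14 with an SE of 0.14 (adjusted p = 0.479, edgeR), with overlapping ages. The TPM ratio of E2F7 to E2F8 was 1.21 and 1.65 in the young tables and 15.8 and 13.7 in the old ones.

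Among the activator E2F factors only E2F1 passed the test, and E2F2 just missed it. E2F1, on chromosome 20 (32263283 to 32274191, minus strand), the activator best known for opening replication genes, stood at 12.9 and 13.8 CPM in young and 4.72 and 6.02 CPM in old cells. Its log2 fold change was -1.32 with an SE of 0.18 (adjusted p = 0.00999, edgeR), just under the threshold. DESeq2 gave an adjusted p of 0.0112 for it and counts rebuilt from TPM one of 0.0101 by edgeR, both over the threshold. E2F2, on chromosome 1 (23832930 to 23857725, minus strand), stood at 3.39 and 3.29 CPM against 0.489 and 0.497 CPM. Its log2 fold change of -2.74 (SE 0.38) missed the threshold at an adjusted p of 0.0102 by edgeR, and passed with the size factors of DESeq2 in edgeR, at an adjusted p of 0.00858. The E2F2 values rest on 53 and 63 estimated counts in young and 9 in each old table. E2F3, on chromosome 6 (20402110 to 20493945, plus strand), stood at 21.6 and 24.9 CPM against 18.9 and 22.8 CPM, a log2 fold change of -0.16 with an SE of 0.13 (adjusted p = 0.375, edgeR), with overlapping ages. The TPM ratio of E2F3 to E2F1 went from 0.895 and 0.966 in young to 2.15 and 2.03 in old tables.

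Of the pocket proteins only RBL1 passed the test. RBL1, on chromosome 20 (35624752 to 35724400, minus strand), is the pocket protein of cycling cells and a known E2F target, and stood at 18.0 and 19.8 CPM in young cells against 7.54 and 7.35 CPM in old cells. Its log2 fold change was -1.34 with an SE of 0.16 (adjusted p = 0.00748, edgeR). RBL2, on chromosome 16 (53467889 to 53525560, plus strand), is the pocket protein of resting cells and stood at 74.1 and 79.5 CPM against 103 and 88.3 CPM, a log2 fold change of 0.32 with an SE of 0.12 (adjusted p = 0.111, edgeR). RB1, on chromosome 13 (48877880 to 49173572, plus strand), stood at 59.1 and 66.6 CPM against 69.4 and 68.8 CPM, a log2 fold change of 0.14 with an SE of 0.11 (adjusted p = 0.359, edgeR). Both had old values above their young values without passing the test, and with unscaled library totals the RB1 and E2F7 values were -0.07 each. On TPM the RB1 and RBL2 differences in I10 were -0.09 and -0.19. The TPM ratio of RBL2 to RBL1 was 5.50 and 6.14 in young and 21.3 and 17.9 in old tables. RB1 overlaps LPAR6 and RCBTB2, and RBL2 overlaps AKTIP, so part of their reads may belong to those genes.

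In all, 8 members did not overlap between ages, beside 74.0% of all genes tested. Within I79, 6 members were lower by more than 0.6 on the log2 scale and none higher, beside 19.6% of genes lower by that much. Within I10 the same count was 6, beside 18.8%. In both isolates these were RBL1, E2F1, E2F2, E2F8, FOXM1 and MYBL2. The other 4 members lay between -0.20 and 0.48.

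**Figure D2:**
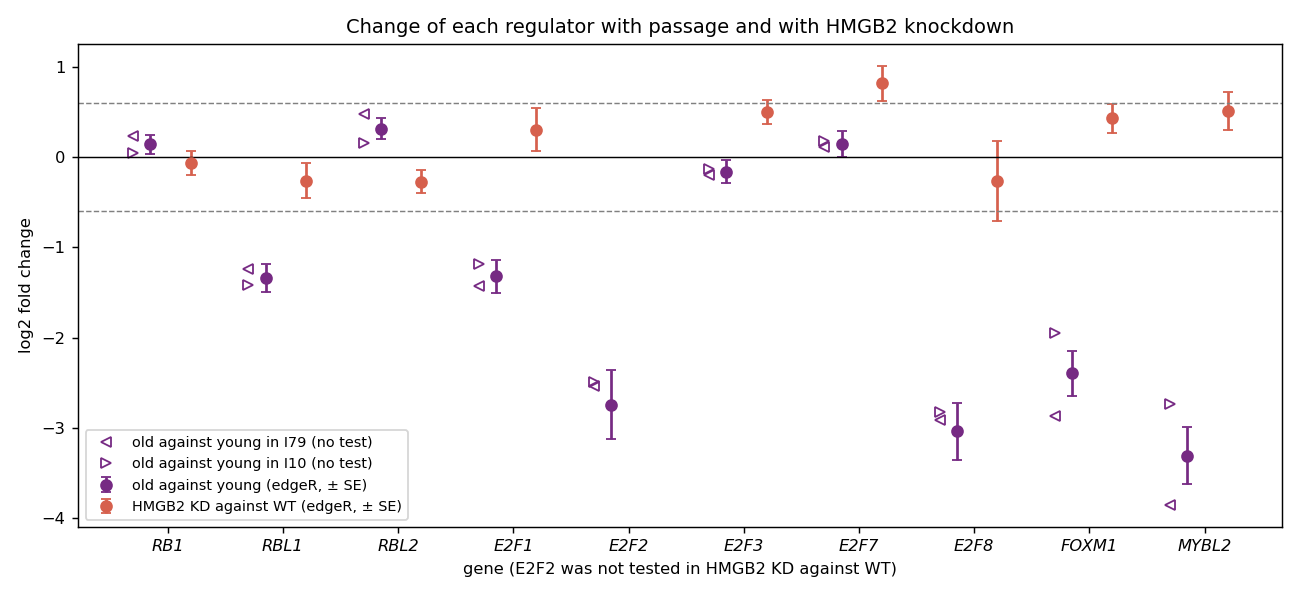
Points show the log2 fold change of each gene (vertical axis) for old against young and for HMGB2 KD against WT, with bars of 1 SE from edgeR, open triangles for each isolate alone and dashed lines at 0.6 and -0.6. MYBL2, E2F8, E2F2, FOXM1, RBL1 and E2F1 lie between -3.31 and -1.32 with passage, while all knockdown values lie between -0.27 and 0.81.

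The old and young tables also split each gene into transcripts. These values are model estimates, in which reads shared by transcripts are divided, so small shares are uncertain. Of 10 listed FOXM1 transcripts 4 reached 1 TPM in a table. FOXM1-202 led in young cells with 21.7 TPM in I79 and 22.7 TPM in I10, and stood at 1.15 and 4.64 TPM in old cells. FOXM1-205 and FOXM1-210 were lower in both old tables too, with log2 differences between -4.07 and -2.11. FOXM1-201 was at 3.46 and 4.24 TPM in young and 2.26 and 1.31 TPM in old cells. Its share of the gene's TPM was 8.97% and 49.8% in I79 young and old, but 10.1% and 14.9% in I10 young and old, so the isolates did not shift alike.

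E2F3 gave 2 transcripts from separate starts, E2F3-201 and E2F3-202, which lie 1800 bases apart in GRCh37, while the starts of the printed windows are 1735 bases apart in GRCh38.p14. E2F3-201, from the upstream start, was at 3.11 and 3.19 TPM in young and 1.78 and 2.31 TPM in old cells. E2F3-202 was at 4.95 and 6.37 TPM in young and 4.67 and 5.11 TPM in old cells. The log2 differences were -0.77 and -0.45 for E2F3-201, against -0.08 and -0.31 for E2F3-202, in I79 and I10. E2F1 and MYBL2 came almost entirely from 1 transcript each. RB1-201 held 75.1% to 88.2% of RB1, and RBL2-201 held 66.8% to 74.1% of RBL2.

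**Figure D3:**
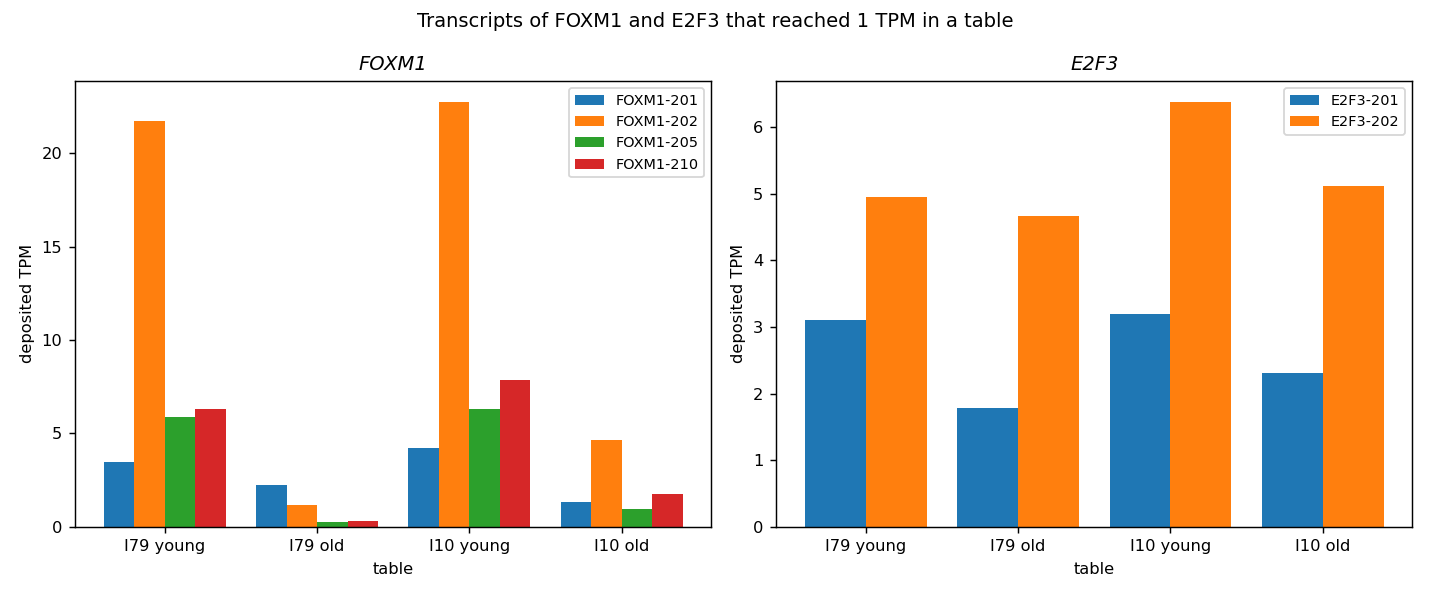
Bars show deposited TPM (vertical axis, from 0) of the transcripts of FOXM1 and E2F3 that reached 1 TPM, in each old and young table, with 1 value per table and no error. FOXM1-202 stands at 21.7 and 22.7 TPM in young and 1.15 and 4.64 TPM in old tables, while both E2F3 transcripts stay between 1.78 and 6.37 TPM.

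The genes that these regulators serve were described through lists of textbook genes. Of 18 G1/S genes known as E2F targets, 15 fell with passage and none rose, with a median log2 fold change of -2.07. Examples are CDC45 (-2.75, from 15.2 and 15.0 CPM to 1.90 and 2.6 CPM) and CDC6 (-2.70, from 22.8 and 23.4 to 3.20 and 3.92 CPM), both needed to load or start replication forks, UHRF1 (-2.55), which keeps DNA methylation through replication, and TK1 (-2.25), a thymidine kinase. MCM4, CDT1 and PCNA did not pass, at -3.10, -0.67 and -0.99. The MCM4 value has an SE of 1.32 and rests on low levels that differ between isolates. They were 1.34 and 8.55 CPM in I79 and I10 young and 0.814 and 0.055 CPM in I79 and I10 old. In the WT and HMGB2 KD libraries, which were counted in another way, MCM4 measured 31.2 to 37.3 CPM. Whether counting made its values low in the old and young tables was not tested. Of 18 G2/M genes known as MYBL2 and FOXM1 targets, 16 fell and none rose, with a median of -2.18. The mitotic kinesin KIF20A (-2.76), the anaphase activator CDC20 (-2.37), Aurora kinase B (AURKB, -2.36) and the phosphatase CDC25C (-2.36) fell most. BUB1 and PRC1 did not pass, at -1.86 and -1.71. The medians stand beside -0.01 over all genes, and the called shares beside the 3.82% of genes called as lower.

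The partners of the regulators did not pass the test. None of 10 genes of the MuvB core, the other E2F factors and their DP partners was called by edgeR, and the median was -0.36. LIN9, a MuvB subunit, was at -1.56 (adjusted p = 0.0159 by edgeR) and RBBP4, a histone-binding subunit, at -0.79 (adjusted p = 0.0175 by edgeR). E2F4, the main E2F of DREAM, was at -0.34. Upstream of RB, 6 of 13 cyclins, kinases and inhibitors passed, 4 as higher and 2 as lower. Cyclin D2 (CCND2) rose from 1.02 and 1.36 CPM to 67.1 and 43.3 CPM, a log2 fold change of 5.47. Cyclin D1 (CCND1) rose by 2.58, the inhibitor p21 (CDKN1A) by 2.48 and CDK6 by 0.95. Cyclin E2 (CCNE2) fell by 1.86 on the log2 scale and the inhibitor CDKN2C by 1.73, with log2 fold changes of -1.86 and -1.73. CDKN2A, which encodes p16, was at 0.44 (adjusted p = 0.306, edgeR). It measured 9.35 and 9.65 CPM in young cells against 8.57 and 18.8 CPM in old ones. No fibroblast marker of 8 passed, though 4 were past 0.6, with VIM at 1.13 (adjusted p = 0.0195, edgeR), DCN at 1.11 (adjusted p = 0.0170, edgeR), COL3A1 at -0.96 (adjusted p = 0.0473, edgeR) and COL1A1 at -0.90 (adjusted p = 0.0638, edgeR). CD68, of the markers of other cell types, was called at 2.37 (adjusted p = 0.00659, edgeR), while VWF at 2.69 was not (adjusted p = 0.0131, edgeR). The part of these in the members' values was not tested.

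**Figure D4:**
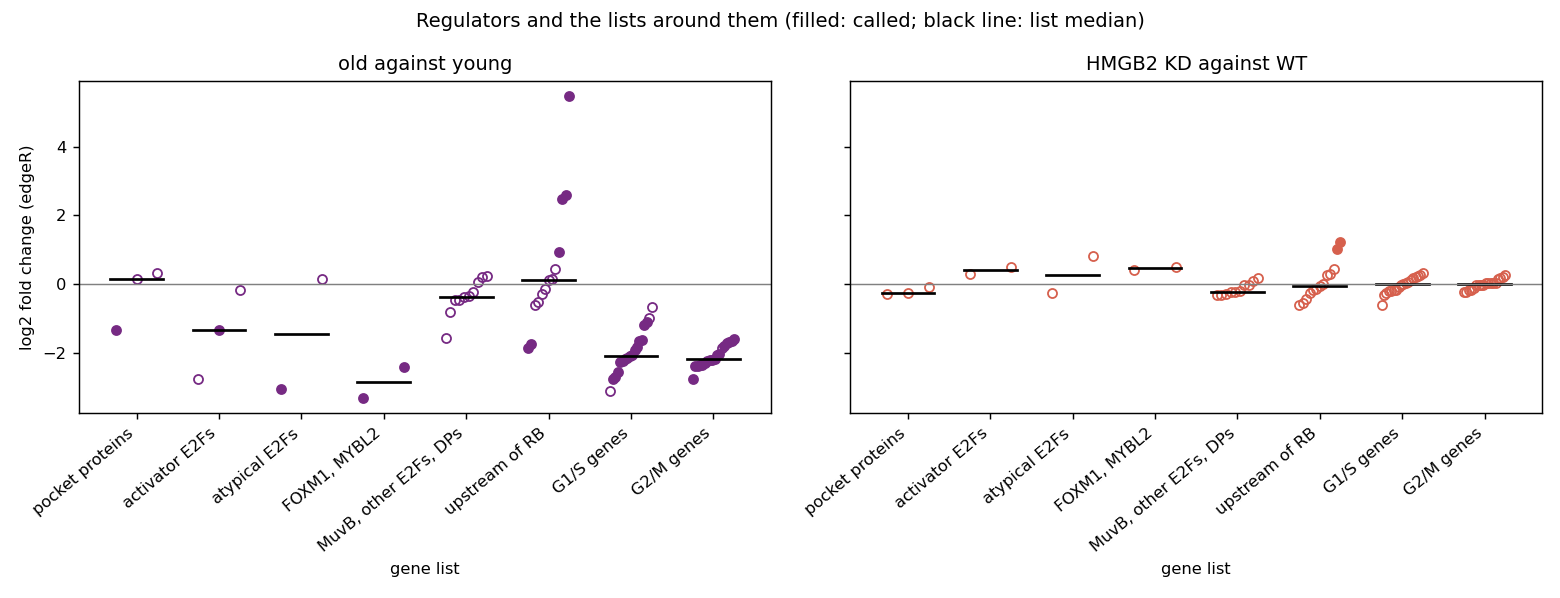
Each point is 1 gene, grouped by list along the horizontal axis, with its log2 fold change from edgeR on the vertical axis, filled where called, and a black line at the list's median. With passage the G1/S and G2/M lists lie at medians of -2.07 and -2.18, while with HMGB2 knockdown both medians are close to 0 and no gene of either list is filled.

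The knockdown comparison asks how the regulators respond when HMGB2, a chromatin protein that is lost in senescent cells, is depleted. HMGB2 itself measured 27.1 and 27.3 CPM in the WT libraries against 3.22 and 3.64 CPM after knockdown, a log2 fold change of -2.99 with an SE of 0.16 (adjusted p = 8.28e-07, edgeR). None of the 9 members tested was called by edgeR, beside 5.20% of 15338 genes, and none by DESeq2. At an unadjusted p under 0.05 edgeR had 5 of the 9 members, beside 23.9% of genes, and 1 of them was past 0.6, beside 11.1% of genes. E2F2 was not tested, with 0 and 1 counts in WT and 0 and 0 in HMGB2 KD, where a count of 0 allows up to 0.089 CPM in the shallowest library. The groups of 6 members did not overlap, beside 53.8% of genes. Values follow in the order WT replicates 1 and 2, then HMGB2 KD replicates 1 and 2.

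E2F7 had the largest difference of the members. It measured 6.69 and 8.25 CPM in WT against 11.2 and 15.0 CPM in the knockdown, a log2 fold change of 0.81 with an SE of 0.19 (adjusted p = 0.0147, edgeR), so it missed the threshold of 0.01. Both knockdown libraries lay above both WT libraries. The call rested on the setting, and with the replicate numbers as a block E2F7 was called (adjusted p = 0.000151, edgeR). E2F7 passed in edgeR with 1 RUVs factor (adjusted p = 0.000624), without the filter on low counts (adjusted p = 0.000749) and without WT replicate 2 (0.97, adjusted p = 0.00726). Without HMGB2 KD replicate 2 it was at 0.59 (adjusted p = 0.151, edgeR). E2F3 measured 27.9 and 30.7 CPM in WT against 40.9 and 42.0 CPM in the knockdown, a log2 fold change of 0.50 with an SE of 0.13 (adjusted p = 0.0252, edgeR), under the fold threshold. E2F1, at 5.64 and 5.17 against 5.22 and 8.08 CPM, overlapped between groups, with a log2 fold change of 0.30 (SE 0.24).

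The late activators and the pocket proteins lay on opposite sides of 0 without passing. MYBL2 measured 6.28 and 7.98 CPM in WT against 8.58 and 11.7 CPM in the knockdown (log2 fold change 0.51, SE 0.21, adjusted p = 0.146 by edgeR). FOXM1 stood at 11.7 and 12.6 CPM against 14.5 and 18.1 CPM (0.43, SE 0.16, adjusted p = 0.114 by edgeR). RBL2 stood at 79.2 and 77.4 CPM against 67.4 and 62.3 CPM (-0.27, SE 0.12, adjusted p = 0.194 by edgeR), and RBL1 at 7.19 and 7.55 against 5.98 and 6.30 CPM (-0.26, SE 0.20). For these 4 genes the groups did not overlap. RB1 (-0.07, SE 0.13) and E2F8 (-0.27, SE 0.45, on 33 to 55 counts) overlapped. Without HMGB2 KD replicate 2 both MYBL2 and FOXM1 were at 0.27.

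The lists moved little in the same libraries. No G1/S gene of 18 and no G2/M gene of 18 was called, with medians of -0.0038 and 0.0068 on the log2 scale beside 0.0018 over all genes. WT itself lay below I79 young by more than 0.6 for 15 of the G1/S genes, with 1 higher, and for all 18 G2/M genes. On CPM over the shared genes FOXM1 stood at 12.6 and 13.6 in WT, 72.6 in I79 young and 8.76 in I79 old. HMGB2 itself stood at 29.4 and 29.6 in WT, 139 in I79 young and 38.8 in I79 old. Those tables were counted in different ways, and whether a low level in WT limited the knockdown result was not tested. None of the 10 MuvB, E2F and DP genes passed. Upstream of RB, CDKN2B (p15), an inhibitor of CDK4 and CDK6, rose by 1.21, from 19.9 and 18.2 CPM to 42.9 and 45.5 CPM, and CDK6 rose by 1.03, from 92.6 and 106 CPM to 211 and 196 CPM. The other 11 of 13 were not called. Of 8 fibroblast markers 4 rose (PDGFRB, COL1A1, FN1 and VIM) and COL3A1 fell, which is a measured difference beside the results above, and its part in them was not tested.

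The ICM libraries could be set only beside tables that were counted in other ways, so the values below are levels without a test, on CPM over the 24638 shared genes. ICM libraries assign reads to coding and untranslated regions, and 61.1% and 61.9% of their reads were coding. Against I79 young, 9 of 10 members were lower by more than 0.6 on the log2 scale and E2F3 lay within 0.6, beside 30.5% of 13857 genes lower by that much. Against the same table WT, whose label names no ICM, had 7 members lower by more than 0.6, beside 22.7% of genes. The ICM, WT and I79 old ratios share the I79 young table, so their likeness is no separate result. Effects of treatment and of counting cannot be told apart here.

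FOXM1 and MYBL2 rested on few reads in the ICM libraries. FOXM1 stood at 2.17 and 2.45 CPM (28 and 26 reads) in I79 ICM, 72.6 CPM in I79 young, 8.76 CPM in I79 old and 12.6 and 13.6 CPM in WT. MYBL2 stood at 0.621 and 0.659 CPM (8 and 7 reads) in I79 ICM, 36.6 CPM in I79 young, 2.15 CPM in I79 old and 6.81 and 8.65 CPM in WT. Both were lower in ICM than in every other table. E2F8 was listed at 0 in both ICM libraries, at 5.98 CPM in I79 young, 0.606 CPM in I79 old and 1.08 and 1.60 CPM in WT. With a limit of 3 counts over both ICM libraries, E2F8 was at least 46.9-fold lower than the I79 young value and at least 4.75-fold lower than the I79 old value. These limits leave out the error of the I79 values, of which the old one rests on 11 estimated counts, and the difference in counting.

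E2F7 was low in the ICM tables but not in I79 old. It stood at 2.25 and 1.88 CPM (29 and 20 reads) in I79 ICM, 14.3 CPM in I79 young, 13.8 CPM in I79 old and 7.26 and 8.94 CPM in WT. Its log2 ratio was -2.75 to I79 young and -2.69 to I79 old, while I79 old to I79 young was -0.05. E2F1 was at 5.83 CPM in both ICM libraries, near 4.79 CPM in I79 old and 6.12 and 5.60 CPM in WT, and below 14.7 CPM in I79 young. E2F2 was at 0.362 and 0.345 CPM in ICM, 3.87 CPM in I79 young, 0.496 CPM in I79 old and 0 and 0.029 CPM in WT.

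E2F3 alone was not lower. It stood at 36.8 and 35.8 CPM in I79 ICM, above 24.6 CPM in I79 young and 19.2 CPM in I79 old, and near 30.2 and 33.3 CPM in WT. Only 29.3% and 30.0% of its ICM reads were coding, against 61.1% and 61.9% over all genes. With untranslated reads left out of the ICM libraries alone, its log2 ratio to I79 young was -0.55 instead of 0.56. The I79 young value kept its untranslated reads, so the -0.55 does not compare like with like. RBL1 stood at 2.99 and 3.72 CPM in ICM, against 20.5 CPM in I79 young and 7.65 CPM in I79 old. RBL2 stood at 41.6 and 40.2 CPM against 84.4 and 105 CPM. RB1 stood at 45.4 and 42.8 CPM against 67.3 and 70.4 CPM, a log2 ratio of -0.61 to I79 young (-0.57 and -0.65 in the single libraries). Its ratio was -0.37 with untranslated reads left out of the ICM libraries alone. Both ICM libraries thus lay below I79 young and I79 old for RB1 and RBL2.

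Against I79 old, 7 members were lower in ICM by more than 0.6 and E2F3 was higher, beside 26.6% of genes lower by that much. Against WT the same counts were 7 lower and 1 higher (E2F2), beside 28.5%. The E2F2 ratio rests on only 4.67 and 3.67 estimated reads in ICM and on 0 and 1 counts in WT. Of the target lists, 17 of 18 G1/S genes and 18 of 18 G2/M genes lay below I79 young in ICM by more than 0.6, with median log2 ratios of -3.22 and -6.19 beside -0.05 over all genes. WT to I79 young gave 15 and 18 lower, with medians of -1.36 and -2.12. The fibroblast marker list, whose sum was 14145.7 and 14402.7 CPM in ICM and 24295 to 45471 CPM elsewhere, had 5 of 8 genes below I79 young by more than 0.6 in ICM, and 5 of 8 in WT. The part of this in the members' values was not tested.

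**Figure D5:**
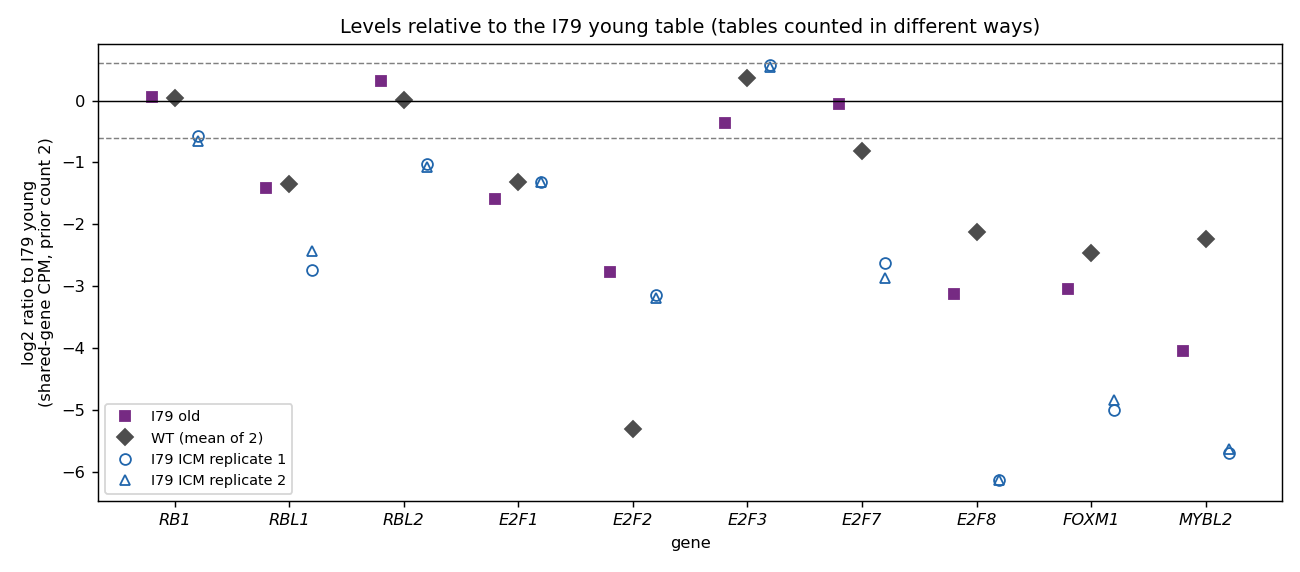
Points show the log2 ratio of each gene to the I79 young table (vertical axis, CPM over shared genes with a prior count of 2) for I79 old, the mean of the WT libraries and each ICM library, with dashed lines at 0.6 and -0.6. Both ICM libraries lie at or below -4.84 for E2F8, FOXM1 and MYBL2 and between 0.54 and 0.58 for E2F3.

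The genes whose levels followed the members most closely were sought over the 8 old, young, WT and HMGB2 KD columns, with each experiment centred. FOXM1 was followed by CENPO, a kinetochore subunit (Pearson r = 0.997 across the 8 columns), TPX2, a spindle assembly factor (0.996), and CTPS1, which makes CTP (0.996), and 428 of 12775 genes had an r over 0.95 with it. RBL2 was closest to SERPINB2 (0.987), AUH (0.987) and CTSK (0.986), with 59 genes over 0.95. E2F3 was closest to MAP1B (0.992), GALNT6 (0.979) and CEMIP2 (0.979), with 25 genes over 0.95. E2F7 was closest to ZDHHC3 (0.986), WWOX (0.980) and FN1 (0.978), with 23. These are descriptions over columns that share 2 experiments and carry no p.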

How the data were processed

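Poly(A)-selected RNA of 14 IMR90 samples was analysed. The 10 members and all gene lists were chosen with earlier results of these data known. Raw counts per gene were deposited for each WT and HMGB2 KD library. The submitters name STAR 2.6.0c, GRCh37 and featureCounts, while the tables end with summary rows in the layout of htseq-count, which held 16.9% to 18.0% of the totals and were left out. For old and young cells the authors deposited estimated counts and TPM per transcript, 1 table per group, and whether it pools the replicates is not stated. For ICM the authors deposited estimated counts per gene and transcript region, with aligner and annotation not given in the sources used here. Transcript counts were summed per gene with GENCODE v44 lifted to GRCh37 (97.7% of transcripts matched) and rounded.

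Tests used edgeR 4.0.16 (R 4.3.3) with the quasi-likelihood test, TMM scaling and filterByExpr, adjusted by Benjamini-Hochberg. Old against young had isolate as a covariate and 1 residual degree of freedom. HMGB2 KD against WT (2 against 2) had no covariate. The labels do not tie the WT and HMGB2 KD replicates to separate cultures, so p-values then measure only the spread between these samples. An SE is the fold change over the square root of F. Alternatives were DESeq2 1.42.0, other scalings, no filter, 1 RUVs factor, the replicate block and left-out libraries. Counting intervals are exact Clopper-Pearson 95% intervals, a count of 0 allows 3 counts, and both cover counting error only. Replicates were no duplicates (chi-square per degree of freedom 2.10 to 37.6). In a test on simulated data, 200 genes were given a log2 change of 1.5. The HMGB2 KD design recovered 99% of them (4 false calls among 15338 genes) and the old against young design 99.5% (1 among 15115). Only genes with high counts were changed, every gene had the same spread between samples, and no isolate effect was simulated. These shares therefore say nothing of members with few counts or with smaller changes.

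All members were named in each comparison, with at most 4 called genes of the largest change per list and the 3 most alike genes of the member with the highest mean CPM in each class. Other genes named beside these, such as those that missed a threshold, were chosen after their values were seen.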

Additional observations from a re-analysis of the deposited data

How the results depend on the processing

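In HMGB2 KD against WT, the count of members called was 0 and became 1, E2F7 each time, without the filter on low counts, with 1 RUVs factor, with the replicate block, and at an adjusted p under 0.05. Leaving out a library gave 0 to 1 members, with E2F7 called without WT replicate 2. Equal replicate numbers in WT and HMGB2 KD mark no shared batch in the labels, and their deviations correlated at 0.124. So few pairs cannot show whether the samples were paired. With the replicate block E2F7 was at 0.81 (adjusted p = 0.000151 by edgeR), and 1243 genes were called instead of 797.

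The sign changed for E2F8 without WT replicate 2 (0.048) and for RB1 and E2F1 without HMGB2 KD replicate 2 (0.074 and -0.046), where leaving out a library in turn gave -0.585 to 0.048 for E2F8, -0.223 to 0.074 for RB1 and -0.046 to 0.571 for E2F1. It also changed for RB1 and E2F7 in old against young with plain library totals (-0.072 and -0.069) and for E2F2 in ICM with WT as the reference (2.14). Plain totals moved the median of all genes in old against young by -0.21 and the share of calls that were higher from 60.1% to 32.6%. In HMGB2 KD against WT this share went from 55.0% to 44.3%. The cause was not tested.

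The 5 called members in old against young ranged from 4 to 6 over 7 alternatives. On TPM, RB1, RBL2 and E2F7 were at -0.09, -0.19 and -0.11 in I10, against 0.05, 0.15 and 0.17 on CPM. Over all genes, the 1446 calls in old against young became 3132 with plain totals, 4265 without the filter, 3860 at an adjusted p under 0.05, and 1505 to 2137 otherwise. The 797 calls in HMGB2 KD against WT became 147 without HMGB2 KD replicate 2, 543 without WT replicate 1, 1175 without the filter, and 1187 at an adjusted p under 0.05. Low depth limits E2F2, E2F8 and the ICM values of FOXM1 and MYBL2. Members lower in ICM than in I79 young by more than 0.6 numbered 8 to 9 over the alternatives that kept this reference, and 7 with WT as the reference. E2F3 in ICM went from 0.56 to -0.55 when untranslated reads were left out of the ICM libraries but not of I79 young. Of 250 alternative values for single members, 206 kept their direction and call or moved by less than the replicate spread. Within an isolate, which has no replicates, the counting interval took the place of that spread. Another 28 moved by more. They include the changes of sign of RB1, RBL2 and E2F7 in I10 on TPM and of E2F3 in ICM. Apart from these, 6 changed sign as given above, 8 came to pass the threshold and 2 no longer passed it.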
